A study of Mus musculus with 3 samples.

Results

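Cluster C8 is a small group of CD8+ T cells that the study labelled as exhausted (T_EX). It was found in the deposited annotation of CD8+ cells as the cluster whose cell numbers in the saline, 5 mg/kg and 50 mg/kg groups equalled those of the study's C8, and it held 291 of 10833 CD8+ cells, among 21204 T cells in all. Of these, 107 came from saline recipients, 60 from recipients of cyclosporine (CSA) at 5 mg/kg and 124 from recipients of CSA at 50 mg/kg. The 3 saline pools held 42, 35 and 30 C8 cells, the 3 pools at 5 mg/kg held 9, 18 and 33, and the 3 pools at 50 mg/kg held 41, 46 and 37.

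The cells came from a mouse model of allogeneic bone marrow transplantation, in which B6D2F1 recipients received B6 bone marrow and B6 T cells together with a few TEa T cells, a TCR transgenic CD4+ line, so that donor T cells met recipient alloantigen. Treatment from day 0 to day 6 was saline for the first group, CSA at 5 mg/kg for the second and a dose of 50 mg/kg for the third, and spleens were taken on day 7. Each group had 6 mice, combined into 3 pools of 2 mice that were told apart by hashtag antibodies, sorted for CD4+ and CD8+ T cells and sequenced for mRNA and TCR on the 10x 5′ platform. All pools of a group shared 1 droplet capture, and the effects of capture and dose cannot be told apart, while p-values below measure the spread between pools of 2 mice.

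Exhaustion is the state that T cells reach under lasting antigen exposure, with sustained inhibitory receptors such as PD-1 (Pdcd1) and Lag-3 and the transcription factor Tox. Triggering of the TCR raises calcium, which activates the phosphatase calcineurin, and calcineurin lets NFAT enter the nucleus, where with AP-1 it turns on cytokine, chemokine and receptor genes. CSA, bound to cyclophilin, blocks calcineurin, and NFAT acting with little AP-1 is known to favour exhaustion genes.

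In all, 2050516 unique molecular identifiers (UMIs, 1 per captured mRNA molecule) were counted in C8 cells, from 49033 to 387454 per pool. The median C8 cell held 4377 UMIs in the saline group, 7541.5 at 5 mg/kg and 8243.5 at 50 mg/kg. The other 10542 CD8+ cells held medians of 4096.5, 6096 and 7152.5 in the same order. Depth moved with dose, and its part in the results was not tested. Mitochondrial genes took a median 1.53% of UMIs in C8 cells and 1.69% in the others, and the CD8 antibody gave medians of 114 and 109 UMIs. No CD8+ cell, in C8 or outside it, was marked as a doublet in the authors' annotation. In 16 C8 cells (5.50%, against 6.07% of the other CD8+ cells) a second hashtag was strong, with at least 0.5 times the count of the first, and 7 C8 cells held 10 or more immunoglobulin UMIs. Of the cell barcodes, 218 occurred in more than 1 capture, among them the barcodes of 5 C8 cells.

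Levels of C8 were first compared with those of the other CD8+ cells of the same pool, in CPM, the summed UMIs of a gene in a pool scaled to 1000000 UMIs in all. The clusters were made from these counts, so these levels are a description and carry no test. Against all other CD8+ cells, C8 held more Pdcd1 (mean 300.4 CPM over 9 pools, SD 212, against 239) and more Lag3 (303 CPM, SD 143, against 170.5) in 9 of 9 pools, and more Tox (129 CPM, SD 92.8, against 104) in 8 of 9 pools. These 3 genes did not set C8 apart from every other cluster. Pdcd1 averaged 324 CPM in C4 and 306 in C5, and C8 was above each of them in 5 of 9 pools. Lag3 averaged 319 CPM in C5, and C8 was above C5 in 4 of 9 pools. Tox averaged 199 CPM in C5, 152 in C4 and 127 in C0, and C8 was above these clusters in 1, 3 and 5 of 9 pools. C5 thus reached the mean of C8 in all of these genes and C4 in Pdcd1 and Tox but not in Lag3 (198 CPM, with C8 above it in 9 of 9 pools), and the cluster is called C8 here.

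**Figure D1:**
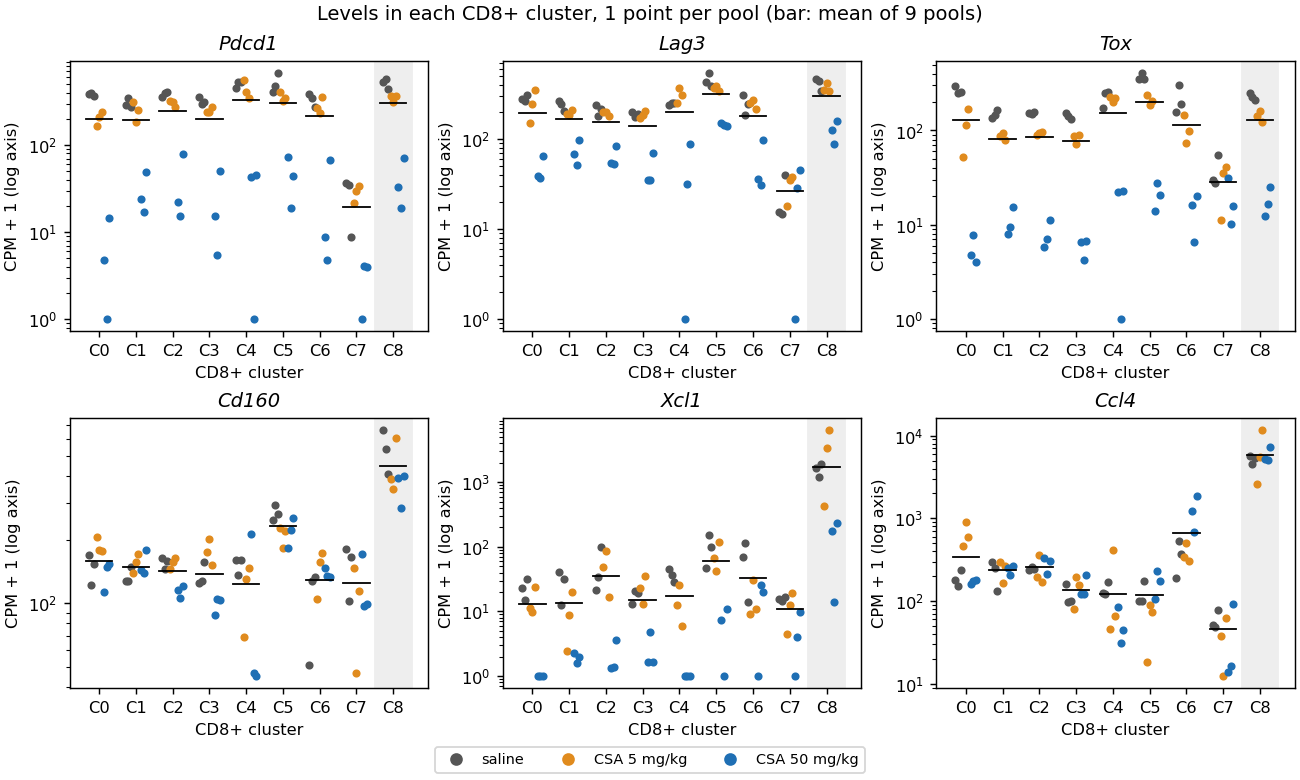
Levels of marker and leading genes in each CD8+ cluster, as CPM + 1 on a log axis, with 1 point per pool coloured by dose and a bar at the mean of 9 pools. For Pdcd1, Lag3 and Tox the points of C8 lie among those of C4 or C5, while for Ccl4 all 9 points of C8 (2631 to 11611 CPM) lie above the points of the other clusters.

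Other markers of exhaustion differed among themselves. Cd160, an inhibitory receptor for HVEM, averaged 447 CPM (SD 126) in C8 against 147 in the other cells, and C8 was above each of the other 8 clusters in 9 of 9 pools. Havcr2 (Tim-3) averaged 262 against 126 CPM and the nuclear receptor Nr4a2 218 against 25.1 CPM, both higher in 9 of 9 pools. Tigit averaged 233 against 196 CPM and was higher in 6 of 9. Ctla4 (32.8 against 48.2 CPM) and the ectonucleotidase Entpd1 (16.8 against 22.7 CPM) were lower in C8 on average. Genes of the stem-like precursor state were divided. Tcf7, at 29.7 against 56.3 CPM, and Slamf6, at 98.7 against 121 CPM, were each higher in C8 in 1 of 9 pools, while the list of 7 such genes summed to 1908 CPM in C8 and 254 in the others, of which Xcl1 made up 1708 CPM in C8. Over the list of 12 exhausted T cell markers, of which 11 were in the table, the summed level was 2004 CPM in C8 and 1126 in the others, and 5 markers were higher in 9 of 9 pools.

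What stood out in C8 was RNA of chemokines, cytokines and early response genes. Its leading gene was Xcl1, the lymphotactin that attracts cross-presenting dendritic cells, with 1708 CPM on average against 26.0 in the other CD8+ cells, a ratio of 65.8. The 3 saline pools held 1663, 1209 and 1897 CPM, the pools at 5 mg/kg 428, 3400.2 and 6356, and the pools at 50 mg/kg 173, 12.9 and 234. Ccl4, a chemokine of activated T cells, was the most abundant of the leading genes, with 5883 against 222 CPM (ratio 26.5), and its neighbour Ccl3 reached 2009 against 91.2 CPM (ratio 22.0). Ifng, the interferon of cytotoxic T cells, averaged 996 against 65.6 CPM (ratio 15.2) and Tnf 131 against 12.7 CPM (ratio 10.4).

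Transcription factors that are switched on early after TCR triggering were the next group. Egr2 averaged 120.0 CPM in C8 against 3.39 in the others (ratio 35.4) and Egr1 160.1 against 21.2 CPM (ratio 7.57). The remaining leading genes by a fixed rule were Rgs16, a brake on G protein signals (ratio 12.6), the histone demethylase gene Kdm6b (9.44), Nr4a2 (8.67), the NF-kB regulator Nfkbid (7.58), Tnfsf14, which encodes LIGHT (7.02), Hivep3 (6.21), the adhesion receptor Crtam (6.18) and Tagap (5.22). All of these genes were higher in C8 in 9 of 9 pools. Just outside the rule, because C8 was higher in 7 or 8 of 9 pools, were Ccl1 at 598 against 9.48 CPM, Nr4a3 at 133 against 3.70 CPM, Csf2 (GM-CSF) at 125 against 3.77 CPM and Nr4a1 (Nur77) at 211 against 19.8 CPM. Over a list of 22 TCR-induced and NFAT-dependent genes the summed level was 13443 CPM in C8, from 7384 to 28688 over pools, and 928 CPM in the others, from 567 to 1206, so the pools of both populations did not overlap in this sum. Ccl4, Ccl3 and Xcl1 made up 5883, 2009 and 1708 CPM of it. Of the 22 members, 9 were higher in C8 in 9 of 9 pools, and all 16 with at least 50 CPM in C8 were higher there on average. Of the 3149 genes with at least 50 CPM in C8, 334 were higher in 9 of 9 pools and 110 of these by at least 2-fold.

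The lowest genes of C8 against the other CD8+ cells were those of mitosis. Of these 10542 other cells, the cycling clusters C2, C3 and C4 held 2494, 1795 and 1116. Levels in the non-cycling clusters alone are not given here. Cenpf, a kinetochore protein, averaged 24.5 against 158 CPM, and Ccna2 (cyclin A2) 38.0 against 197 CPM, both lower in 9 of 9 pools. Nusap1, Cdk1, Hmmr, Cenpe, Cdc20, Knl1, Plk1 and Prc1 completed the 10 lowest genes. All 10 genes of the mitosis list were lower in 9 of 9 pools, with 695 CPM in sum against 2601 CPM. The 12 genes of the S phase list summed to 1385 against 2379 CPM. Genes of naive T cells were low as well, at 199 against 393 CPM in sum, with C8 higher in 0 of 9 pools. By contrast the cytotoxic list, which shares Ccl3, Ccl4, Ifng and Tnf with the TCR list, summed to 23596 CPM in C8 and 13692 CPM in the others.

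Markers of the lineage were those of CD8+ T cells. Cd8a averaged 838 CPM in C8 and 558 in the others, Cd8b1 1540.4 and 1827, and Cd3e 1261 and 1062. Cd4 was at 0 in C8, as it was in all 10833 CD8+ cells, so this zero does not set C8 apart. B cell markers summed to 324 CPM in C8 and 312 in the others, with Ms4a1 at 0 in C8, and myeloid markers to 356 and 377 CPM. NK cell markers summed to 14.3 and 12.7 CPM, with Klra8 and Klra4 at 0, dendritic cell markers to 255 and 229 CPM, with Flt3 and Siglech at 0, and erythroid markers to 7.01 and 21.8 CPM. Plasma cell markers summed to 177 CPM (61.2 to 725 over pools) and 166 CPM (59.2 to 394). Genes that respond to tissue dissociation summed to 682 CPM in C8 (519 to 1025) and 507 CPM in the others (469 to 548), higher in C8 in 9 of 9 pools, with Hspa1a and Hspa1b at 0 in C8. This list holds early response genes that TCR triggering also raises, and its part in the level of C8 was not tested. Over 3211 genes the mean log2 CPM profile of C8 was nearest to that of C6 (Pearson r 0.923 across genes), then C2 (0.906) and C1 (0.905), and farthest from C4 (0.764). Genes are not independent replicates, and the profiles share the pools they were summed from.

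The chemokine RNA was spread unevenly over the C8 cells. After each cell was thinned to 2000 UMIs, which left out 1 of the C8 cells, Ccl4 was seen in 76.6% of C8 cells of the saline group, 74.6% at 5 mg/kg and 70.2% at 50 mg/kg (unthinned 82.2%, 79.7% and 82.3%). In C7, the naive T cell cluster and the lowest in Pdcd1, these shares were 13.6%, 5.23% and 4.35%, at median depths of 3573, 4530 and 4995 UMIs. C7 is thus a low reference, and shares in the clusters nearest to C8 are not given here. In C6, the nearest by profile, the level of Ccl4 was 188 to 539 CPM over saline pools and 679 to 1842 CPM at 50 mg/kg. Xcl1 was seen in 40.2%, 54.2% and 7.26% of C8 cells, and Ccl1, a ligand of CCR8, in 14.95%, 18.6% and 0.0% (unthinned 20.6%, 25.4% and 0.806%). A few cells held most of the UMIs of some of these genes. At 5 mg/kg, 15 of 60 C8 cells held the 1008 UMIs of Ccl1, the top 5 cells held 89.0% of them and a single cell held 290. For Xcl1 at 5 mg/kg the top 5 of 39 cells with a UMI held 63.6%, and for Ccl4 in the saline group the top 5 of 88 cells held 24.9%.

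Changes with dose were then tested within C8, on the summed counts of each pool. The pool of 9 cells, CSA 5 mg/kg replicate 1, was below the minimum of 10 cells and is left out of these fits, so the groups held 3, 2 and 3 pools. Values from here on are CPM scaled by TMM, which sets the bulk of genes equal between pools, and a gene was called at an adjusted p under 0.05 (quasi-likelihood test of edgeR, p-values adjusted by Benjamini-Hochberg over 4775 genes). A lower level in summed cells can mean fewer cells with the RNA or less RNA per cell, and these cannot be told apart in the sums. C8 was drawn from these same counts, so a cell that gained or lost the RNA that marks C8 could be placed in or out of it. The part of this in the changes with dose, and in their differences from the other cells, was not tested.

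Against saline, 50 mg/kg changed 1884 genes in C8, or 39.5% of those tested. Of these, 954 (20%) were higher and 930 (19.5%) were lower. The dose of 5 mg/kg changed 836 genes (17.5%), with 525 (11%) higher and 311 (6.51%) lower. Between the doses 316 genes differed (6.62%), and 152 of them (3.18%) were higher and 164 (3.43%) lower at the higher dose. These shares of all genes are the background for the counts over gene lists that follow. The pools of both groups did not overlap for 48.9% of genes at 50 mg/kg, 46.8% at 5 mg/kg and 36.5% between doses, which is the background for the statements on overlap that follow. The split into higher and lower depended on the scaling. Scaled by library size alone, the median log2 change of all genes was -0.47 at 50 mg/kg and -0.42 at 5 mg/kg, against -0.02 and -0.04 with TMM, and the calls were 397 higher against 1769 lower at 50 mg/kg, 259 against 1001 at 5 mg/kg, and 120 against 203 between doses. Without CSA 5 mg/kg replicate 2 or 3, the calls were 521 and 476 at 5 mg/kg and 186 and 179 between doses, and without CSA 50 mg/kg replicate 2 those between doses were 207. TMM factors were 1.16 to 1.22 in the saline pools and 0.867 to 0.930 in the CSA pools.

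Most of the inhibitory receptors fell at 50 mg/kg, and at 5 mg/kg most did not pass. Pdcd1 stood at 467, 522 and 406 CPM in the saline pools, 359.9 and 419 at 5 mg/kg, and 38.0, 22.0 and 85.5 at 50 mg/kg. The 50 mg/kg pools lay far below all others, a log2 change of -3.29 ± 0.26 (SE) against saline (edgeR adjusted p = 2.13e-10), while the saline and 5 mg/kg pools overlapped (-0.24 ± 0.23, adjusted p = 0.482). The share of thinned C8 cells with a Pdcd1 UMI was 61.7%, 50.8% and 7.26% in the order of dose (unthinned 79.4%, 83.1% and 20.2%), and in C7 it was 5.45%, 6.54% and 0.621%. Lag3 stood at 418, 394 and 321 CPM, then 477 and 390.3, then 149, 107 and 193, again with the 50 mg/kg pools lowest (log2 change -1.36 ± 0.20, adjusted p = 5.56e-06). At 5 mg/kg its change was 0.17 ± 0.20 (adjusted p = 0.596). Havcr2 differed from these in that it was already low at 5 mg/kg. It stood at 462, 485 and 485 CPM in saline, 132 and 166 at 5 mg/kg, and 131, 94.2 and 156 at 50 mg/kg, with log2 changes of -1.64 ± 0.23 (adjusted p = 4.91e-06) and -1.92 ± 0.19 (adjusted p = 7.40e-09). Cd200, whose product signals through CD200R, went up at 5 mg/kg and down at 50 mg/kg, with 82.7, 69.2 and 60.6 CPM in saline, 191 and 129 at 5 mg/kg and 6.92, 3.14 and 7.43 at 50 mg/kg (adjusted p = 0.0148 and 2.77e-06). Its rise at 5 mg/kg was lost with library size scaling, with all 9 pools, or without saline replicate 2 or CSA 5 mg/kg replicate 2 (adjusted p 0.0514 to 0.135). Of the 9 receptors tested, 6 fell and 0 rose at 50 mg/kg, and 1 fell and 1 rose at 5 mg/kg (library size scaling 8 and 0, and 2 and 0). Cd160 was not among the 6, and at 50 mg/kg it was called lower with library size scaling but not with TMM or DESeq2. Without TMM scaling it held 660, 537 and 409 CPM in the saline pools and 390, 281 and 402 at 50 mg/kg. In all, the receptor list had a median log2 change of -1.36 at 50 mg/kg in C8 and -1.33 in the other CD8+ cells, against -0.02 over all genes in C8.

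**Figure D2:**
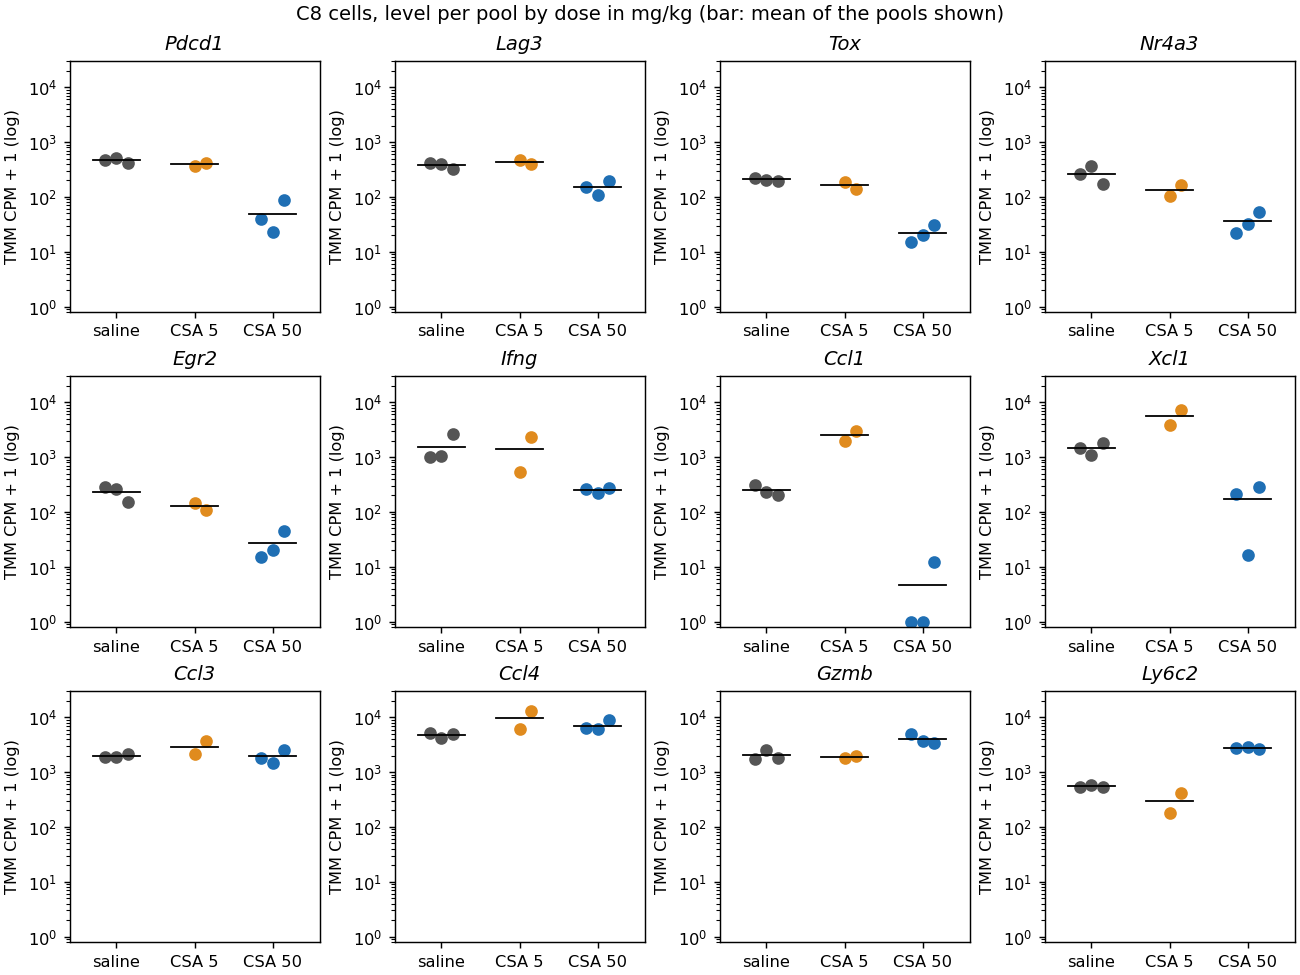
Levels of selected genes in C8 cells by dose, as TMM-scaled CPM + 1 on a log axis, with 1 point per pool and a bar at the mean of the pools shown. Pdcd1 and Tox are lowest in the 3 pools at 50 mg/kg, while Ccl1 and Xcl1 are highest in the 2 fitted pools at 5 mg/kg and lowest at 50 mg/kg.

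Transcription factors of the exhaustion programme changed in part. Tox, which sustains exhausted cells, stood at 224, 202 and 194 CPM in saline, 184 and 141 at 5 mg/kg, and 13.8, 18.8 and 29.7 at 50 mg/kg. Its log2 change was -3.30 ± 0.30 at 50 mg/kg (edgeR adjusted p = 1.79e-09) and -0.39 ± 0.25 at 5 mg/kg (adjusted p = 0.299). With library size scaling the changes of Pdcd1 (-0.61, adjusted p = 0.0477) and Tox (-0.76, adjusted p = 0.0297) at 5 mg/kg passed the threshold, and that of Lag3 turned to -0.20. Nr4a3, a nuclear receptor induced by TCR signals, went from 258, 367 and 169.8 CPM to 103 and 162 and then to 20.7, 31.4 and 52.0, with adjusted p = 0.0320 at 5 mg/kg and 3.92e-08 at 50 mg/kg. The first of these calls was lost with DESeq2 and without saline replicate 1 or 2 or CSA 5 mg/kg replicate 2 (adjusted p 0.0641 to 0.275). Egr2, from the same wave of genes, went from 282, 266 and 152 CPM to 147 and 108 and then to 13.8, 18.8 and 44.6 (adjusted p = 0.0360 and 2.00e-08). For Egr2 the call at 5 mg/kg was lost with DESeq2, a replicate block, without cells of 2 strong hashtags, and without saline replicate 1 or 2 or either CSA 5 mg/kg pool (adjusted p 0.0774 to 0.324). Nr4a1, a close relative of Nr4a3, did not follow it. It stood at 345, 133 and 146 CPM in saline, 154 and 224 at 5 mg/kg, and 398, 386 and 279 at 50 mg/kg, with the ranges of saline and 50 mg/kg overlapping (log2 change 0.74 ± 0.24, adjusted p = 0.0177). This call was lost with DESeq2, with library size scaling, with all 9 pools and without 4 of the single pools, saline replicate 2 and 3 and CSA 50 mg/kg replicate 1 and 2 (adjusted p 0.0593 to 0.367). Of the 12 factors tested, 7 fell and 3 rose at 50 mg/kg (library size scaling 8 and 0), and 2 fell and 1 rose at 5 mg/kg (library size scaling 6 and 1). Over all genes tested, 19.5% fell and 20% rose at 50 mg/kg, and 6.51% fell and 11% rose at 5 mg/kg. The rises among the factors were thus near the share of all genes. The factor that rose at 5 mg/kg was Batf, an AP-1 partner of Irf4, at 175, 213 and 194 CPM in saline and 529 and 316 at 5 mg/kg (log2 change 1.07 ± 0.24, adjusted p = 0.00254), a call that was lost without CSA 5 mg/kg replicate 2 (0.77, adjusted p = 0.0772).

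The chemokine and cytokine genes that lead C8 parted from each other with dose. Ccl1 stood at 306, 234 and 200.1 CPM in saline, 1998 and 3019 at 5 mg/kg, and 0, 0 and 11.2 at 50 mg/kg. Both fitted 5 mg/kg pools lay above every saline pool, a log2 change of 3.34 ± 0.20 (edgeR adjusted p = 4.39e-12), and with all 9 pools the change was 2.91 (adjusted p = 2.62e-06). The pool left out of the fit did not follow, at 184 CPM without TMM scaling, and without its top cell each 5 mg/kg pool fell, to 22.4, 523 and 1632 CPM, and each saline pool, to 235, 198 and 20.6. At 50 mg/kg only 3 UMIs of Ccl1 were counted against 140 in saline, which put saline 73.3-fold higher (95% counting interval 24.6 to 359.7). Xcl1 moved in the same order, from 1483, 1091 and 1771 CPM to 3893 and 7296 at 5 mg/kg and to 207, 15.7 and 286 at 50 mg/kg (log2 change 1.96 ± 0.29, adjusted p = 1.56e-05, and -3.13 ± 0.35, adjusted p = 6.12e-08). DESeq2 gave adjusted p = 0.170 for its rise at 5 mg/kg, and the pool left out held 428 CPM of Xcl1. Ifng stood at 1016, 1054 and 2596 CPM in saline, 544 and 2325 at 5 mg/kg, and 266, 219.7 and 271 at 50 mg/kg, a log2 change of -2.61 for the higher dose (adjusted p = 1.11e-06). A single cell held 42.0% of the Ifng UMIs in saline and 43.2% at 5 mg/kg. Without the top cell of each pool, and without TMM scaling, the saline pools held 932, 657 and 521 CPM of Ifng. The fitted pools at 5 mg/kg then held 330 and 1008 CPM, and those at 50 mg/kg 166, 158 and 201. Csf2 went from 126, 186 and 255 CPM in saline and 279 and 282 at 5 mg/kg to 6.92, 6.28 and 7.43 at 50 mg/kg (log2 change -4.66 ± 0.40, adjusted p = 7.77e-10). Taken the same way without the top cells, the saline pools held 95.2, 130 and 54.2 CPM of Csf2. The fitted pools at 5 mg/kg then held 42.4 and 147 CPM, and those at 50 mg/kg 2.99, 2.62 and 3.09.

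Ccl3 and Ccl4 kept high levels at every dose in the cells placed in C8. Both are among the genes that set the cluster apart, so their level within it depends in part on how C8 was made. Ccl3 stood at 1882, 1879 and 2159 CPM in saline, 2115 and 3725 at 5 mg/kg, and 1836, 1494 and 2576 at 50 mg/kg, with a log2 change of -0.01 ± 0.16 at 50 mg/kg (edgeR adjusted p = 0.982). Library size scaling gave -0.46 for it (adjusted p = 0.0242). Ccl4 stood at 5106, 4153 and 5046 CPM, then 6243 and 13330.0, then 6331, 6111 and 8798, and both doses were called higher (log2 change 1.05 ± 0.19, adjusted p = 0.000181, and 0.57 ± 0.17, adjusted p = 0.00915). Its call at 50 mg/kg was lost with library size scaling (0.12, adjusted p = 0.582), with DESeq2, with all 9 pools and without saline replicate 2 or CSA 50 mg/kg replicate 3 (adjusted p 0.0847 to 0.207 for these), and that at 5 mg/kg with all 9 pools (0.63, adjusted p = 0.0816) and without CSA 5 mg/kg replicate 3 (0.41, adjusted p = 0.101). The chemokine Ccl5, stored by memory cells, rose instead, from 2300.2, 2178 and 1716 CPM in saline and 1939 and 3546 at 5 mg/kg to 14917, 19731 and 15649 at 50 mg/kg (log2 change 3.02 ± 0.15, adjusted p = 8.13e-14).

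Of the 22 TCR-induced and NFAT-dependent genes, 19 could be tested. At 50 mg/kg 15 fell and 2 (Nr4a1 and Ccl4) rose, with a median log2 change of -1.81 in C8 and -1.24 in the other cells. With library size scaling 17 fell and 0 rose, and with DESeq2 14 fell and 0 rose. At 5 mg/kg 7 rose (Ccl1, Ccl3, Ccl4, Xcl1, Tnfrsf4, Cd200 and Nrgn) and 4 fell (Nfatc1, Egr1, Egr2 and Nr4a3), with a median of 0.04. With library size scaling 4 rose and 5 fell, and with DESeq2 3 (Nrgn, Ccl1 and Ccl4) rose and 2 (Egr1 and Nfatc1) fell. Nrgn, a calmodulin-binding protein, stood at 316, 176 and 115 CPM in saline, 573 and 523 at 5 mg/kg, and 0, 3.14 and 3.72 at 50 mg/kg, with 2 UMIs at 50 mg/kg against 117 in saline (91.9-fold, counting interval 24.9 to 767.5).

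**Figure D3:**
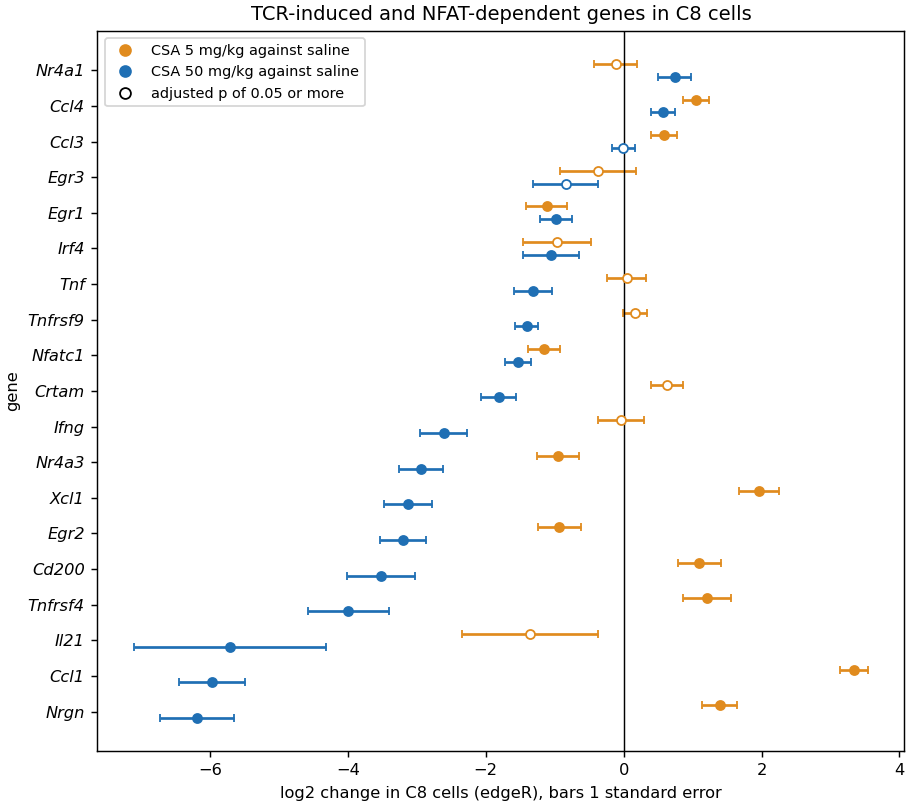
Log2 change of the 19 tested TCR-induced and NFAT-dependent genes in C8 cells at 5 and at 50 mg/kg against saline, with bars of 1 standard error from edgeR. Ccl1, Xcl1 and Nrgn lie to the right of 0 at 5 mg/kg and far to the left at 50 mg/kg, and Ccl3 lies at -0.01 at 50 mg/kg.

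Promoters of 5 genes, Ccl1, Xcl1 and Ccl3 of this list, the receptor gene Pdcd1 and the granzyme gene Gzmb, are shown because their RNA went different ways at 50 mg/kg. Each is the 250 bases before the RefSeq start on build GRCm38.p6, 5′ to 3′ on the strand of the gene, and capitals mark the NFAT core GGAAA or its reverse complement TTTCC, and the AP-1 site TGANTCA, with no base in both motifs. Ccl1 (chr11:82179813-82180062, minus strand) and Pdcd1 (chr1:94052554-94052803, minus strand) fell at 50 mg/kg, as did Xcl1 (chr1:164935523-164935772, minus strand), Ccl3 (chr11:83649379-83649628, minus strand) did not pass, and Gzmb (chr14:56262335-56262584, minus strand) rose.
Ccl1: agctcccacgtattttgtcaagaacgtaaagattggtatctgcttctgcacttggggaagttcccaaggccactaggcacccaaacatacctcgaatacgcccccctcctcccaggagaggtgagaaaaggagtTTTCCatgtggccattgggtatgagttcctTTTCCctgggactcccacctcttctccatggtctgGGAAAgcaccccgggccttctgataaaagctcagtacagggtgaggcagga
Xcl1: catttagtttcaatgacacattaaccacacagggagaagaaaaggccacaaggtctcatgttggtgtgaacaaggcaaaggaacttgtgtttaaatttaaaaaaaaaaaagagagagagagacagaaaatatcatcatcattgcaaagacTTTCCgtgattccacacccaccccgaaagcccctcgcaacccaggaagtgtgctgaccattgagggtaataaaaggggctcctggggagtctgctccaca
Pdcd1: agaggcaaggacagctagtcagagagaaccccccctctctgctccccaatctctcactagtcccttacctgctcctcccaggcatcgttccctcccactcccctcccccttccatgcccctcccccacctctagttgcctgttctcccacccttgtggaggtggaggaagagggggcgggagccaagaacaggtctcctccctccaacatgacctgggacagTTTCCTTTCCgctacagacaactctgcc
Ccl3: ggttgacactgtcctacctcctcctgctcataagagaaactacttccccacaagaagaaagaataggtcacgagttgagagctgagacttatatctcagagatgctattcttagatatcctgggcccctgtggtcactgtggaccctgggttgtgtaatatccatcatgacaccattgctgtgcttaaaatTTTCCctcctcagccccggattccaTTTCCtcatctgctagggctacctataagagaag
Gzmb: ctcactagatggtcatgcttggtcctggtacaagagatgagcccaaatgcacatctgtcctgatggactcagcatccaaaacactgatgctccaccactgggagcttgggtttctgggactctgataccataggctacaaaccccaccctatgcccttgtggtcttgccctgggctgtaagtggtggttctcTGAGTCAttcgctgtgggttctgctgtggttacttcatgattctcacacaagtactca
The Ccl1 window held 3 matches to the NFAT core, Pdcd1 and Ccl3 held 2 each, Xcl1 held 1 and Gzmb held 0, while 55.6% of 32851 promoters of this length held at least 1. The AP-1 site was found in the Gzmb window, and 6.75% of all promoters held it. Among the 8 largest rises at 50 mg/kg 6 genes had a promoter in the table and 2 of them held the NFAT core, and among the 8 largest falls 4 had one and 2 held it. A match is a description of the letters and no sign that NFAT bound there.

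Cytotoxic genes changed in both directions. Gzmb (granzyme B) stood at 1751, 2582 and 1838 CPM in saline, 1807 and 2006 at 5 mg/kg, and 4917, 3685 and 3394 at 50 mg/kg, with all 50 mg/kg pools above all others (log2 change 0.96 ± 0.14, edgeR adjusted p = 3.47e-06). Gzmc, a granzyme of strongly stimulated killer cells, was at 0, 0 and 6.06 CPM in saline, 14.7 and 20.8 at 5 mg/kg, and 211, 728 and 230.5 at 50 mg/kg. The 355 UMIs at 50 mg/kg against 1 in saline gave a 226-fold higher level (counting interval 40.3 to 8953). At 50 mg/kg 12.9% of thinned C8 cells held a Gzmc UMI, against 0.621% of the naive cluster C7, a low reference. Of the 355 UMIs, 140 were in a single cell of CSA 50 mg/kg replicate 2. Perforin went the other way, with Prf1 at 759, 410.0 and 594 CPM in saline, 154 and 291 at 5 mg/kg, and 163, 109.9 and 149 at 50 mg/kg (adjusted p = 0.000368 and 3.06e-08). Of the 13 cytotoxic genes tested, 5 rose and 4 fell at 50 mg/kg, and 4 rose and 1 fell at 5 mg/kg. The balance turned with library size scaling, to 3 higher against 6 lower at 50 mg/kg and 1 against 3 at 5 mg/kg. Over all genes tested with TMM, 20% rose and 19.5% fell at 50 mg/kg, and 11% rose and 6.51% fell at 5 mg/kg.

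The other large rises at 50 mg/kg were of surface and calcium-binding proteins. Ly6c2, a marker of memory and effector cells, stood at 535, 580.3 and 528 CPM in saline, 176 and 424 at 5 mg/kg, and 2739, 2938 and 2632 at 50 mg/kg. It was lower at 5 mg/kg (log2 change -0.77 ± 0.21, edgeR adjusted p = 0.0111, lost without CSA 5 mg/kg replicate 2 at -0.30) and higher at 50 mg/kg (2.34 ± 0.15, adjusted p = 5.66e-12). Reads of its near-identical neighbour Ly6c1 could be split between both genes in counting. Anxa1 (annexin A1) rose by 2.82 ± 0.27, Ctla2a, a cathepsin inhibitor, by 2.80 ± 0.23, S100a4 by 2.42 ± 0.18, S100a6 by 2.18 ± 0.13 and Klrd1, the CD94 receptor of NK cells and memory T cells, by 2.18 ± 0.20 on the log2 scale, the last with adjusted p = 3.12e-09. Klrd1 held 189.7, 144 and 267 CPM in saline and 864, 901 and 937 at 50 mg/kg.

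Most nuclear genes of ribosomal proteins and of oxidative phosphorylation rose at both doses. Of 80 cytosolic ribosomal protein genes tested, 77 rose at 5 mg/kg and 79 at 50 mg/kg, with median log2 changes of 1.08 and 1.13 in C8 and 1.11 and 1.25 in the other CD8+ cells, and 74 rose at each dose with library size scaling. Rps28 alone went from 443, 516 and 667 CPM to 2446 and 2570.5 at 5 mg/kg and 1525, 1541 and 1546 at 50 mg/kg. Of 70 genes of oxidative phosphorylation, 56 rose at 5 mg/kg and 60 at 50 mg/kg, with medians of 1.00 and 1.04, and 40 and 50 rose with library size scaling. The 13 respiratory genes of the mitochondrial genome did not share this, since 1 rose and 0 fell at 5 mg/kg and 4 rose and 1 fell at 50 mg/kg (median -0.02), while with library size scaling 0 rose and 2 and 8 fell. Among the largest rises at 5 mg/kg were also Mrpl52 (2.47 ± 0.23), a mitochondrial ribosomal protein, and Atp5k (2.16 ± 0.31), a subunit of ATP synthase. The largest falls at 5 mg/kg included Themis (-1.54 ± 0.33), a TCR signalling adaptor, Rasa3 (-1.62 ± 0.32), a Ras and Rap GTPase activator, Ogt (-1.75 ± 0.41), the O-GlcNAc transferase, and Actr2 (-1.54 ± 0.18) of the Arp2/3 complex. The call of Ogt was lost without CSA 5 mg/kg replicate 3 (adjusted p = 0.134). Reads of ribosomal protein genes can be shared with pseudogenes.

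Genes of the cell cycle fell in C8 at 50 mg/kg. Mki67, which marks cycling cells, stood at 199, 282 and 188 CPM in saline, 228 and 332 at 5 mg/kg, and 34.6, 15.7 and 100.4 at 50 mg/kg (log2 change -2.20 ± 0.35, edgeR adjusted p = 1.86e-05). Of the 8 mitosis genes tested, 5 fell and 0 rose at 50 mg/kg, with a median of -1.63 in C8 and 0.05 in the other CD8+ cells, and 0 passed the test of the difference between these populations at this dose. Summed over all 10 genes of the list, without TMM scaling, the level was lower at 50 mg/kg in both populations. In the other CD8+ cells it was 3587 to 3756 CPM over the saline pools and 1561 to 1930 at 50 mg/kg. For C8 it was 858 to 1168 and 106 to 517 CPM. In C8 0 were called at 5 mg/kg. Histone genes were among the largest falls, with Hist1h3e at 331, 266 and 267 CPM in saline and 17.3, 15.7 and 14.9 at 50 mg/kg (log2 change -4.13 ± 0.30) and Hist1h4d at -3.36 ± 0.21. Histone copies are near-identical, so their reads could be split among them in counting.

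Compared with 5 mg/kg directly, C8 cells at 50 mg/kg held less Ccl1 (log2 difference -9.32 ± 0.34), Nrgn (-7.59 ± 0.47), Csf2 (-5.25 ± 0.40), Ifitm1 (-5.16 ± 0.47) and Xcl1 (-5.09 ± 0.35), and less Pdcd1 (-3.05 ± 0.29, edgeR adjusted p = 3.46e-08) and Tox (-2.91 ± 0.34, adjusted p = 1.10e-06). They held more Gzmc (4.37 ± 0.61), Anxa1 (3.43 ± 0.34), Ly6c2 (3.10 ± 0.19), Ccl5 (2.59 ± 0.18) and Klrk1 (1.88 ± 0.21), the gene of the activating receptor NKG2D. Klrk1 stood at 147 and 125 CPM in the 5 mg/kg pools and at 488, 511.6 and 479 in the 50 mg/kg pools. This comparison shares its pools with the comparisons against saline.

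Whether these changes were particular to C8 was tested as the difference between the change in C8 and the change in the other CD8+ cells of the same pools, with the pool as a block. At 50 mg/kg 17 of 4775 genes passed (0.356%), 8 with a positive difference (0.168%) and 9 with a negative one (0.188%). The count was 43 and 37 without CSA 5 mg/kg replicate 2 and 3, 9, 7 and 8 without saline replicate 1, 2 and 3, and 8 without CSA 50 mg/kg replicate 2. The changes of Pdcd1, Tox and Lag3 did not differ past the threshold. On simulated counts this test recovered 45.4% of genes with a log2 difference of 1 and 88.8% at 2, so a difference of 1 could be missed. Pdcd1 changed by -3.24 in the other cells (difference 0.26, edgeR adjusted p = 0.888), Tox by -4.13 (difference 1.00, adjusted p = 0.492) and Lag3 by -1.51 (difference 0.36, adjusted p = 0.722). Ccl5 rose by 3.00 in the other cells as well, and Ly6c2 by 2.65.

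Among the genes past the threshold at 50 mg/kg, Gzmb changed by 0.05 in the other cells, and its difference was 1.07 ± 0.12 (edgeR adjusted p = 7.58e-06). The difference of Gzmc was 5.63 ± 0.99 and that of Itm2a, a membrane protein of activated T cells, 2.26 ± 0.47. Both were lost with DESeq2 (adjusted p = 0.0990) and without saline replicate 1 or 2, and that of Itm2a also without CSA 50 mg/kg replicate 1 or 2 (adjusted p 0.0547 to 0.197). Itm2a held 14.6, 21.3 and 36.4 CPM in the saline pools of C8 and 114, 84.7 and 66.9 in the 50 mg/kg pools. Dusp5, a phosphatase that acts on ERK (difference 1.13 ± 0.23), and Ifngr1, a chain of the interferon gamma receptor (1.03 ± 0.15), were also higher relative to the other cells, that of Dusp5 not with DESeq2, without the cycling clusters, or without saline replicate 2 or 3 or CSA 50 mg/kg replicate 2 (adjusted p 0.0538 to 0.141). In the opposite direction, Csf2 had a difference of -3.90 ± 0.70 (adjusted p = 0.00574), Ifitm1 -2.72 ± 0.55 and Crtam -1.47 ± 0.30. The call of Ifitm1 was lost with DESeq2 and without saline replicate 2 or 3 or CSA 50 mg/kg replicate 1 or 3 (adjusted p 0.0646 to 0.374), and that of Crtam with all 9 pools and without saline replicate 1 or 2 or CSA 50 mg/kg replicate 2 (adjusted p 0.109 to 0.203). Rgcc, a regulator of the cell cycle, rose by 2.23 in the other cells while its 3 pools of C8 at 50 mg/kg held 69.2, 25.1 and 63.2 CPM against 53.5, 63.9 and 78.8 in saline, a difference of -2.42 ± 0.44 (adjusted p = 0.0555 without saline replicate 3). The histone gene Hist1h2ae had a difference of -1.82 ± 0.42 (adjusted p = 0.0494), which became 0.49 when the cycling clusters C2, C3 and C4 were left out of the other cells and was lost with DESeq2, library size scaling, all 9 pools and without any single saline or 50 mg/kg pool (adjusted p 0.0581 to 0.337).

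**Figure D4:**
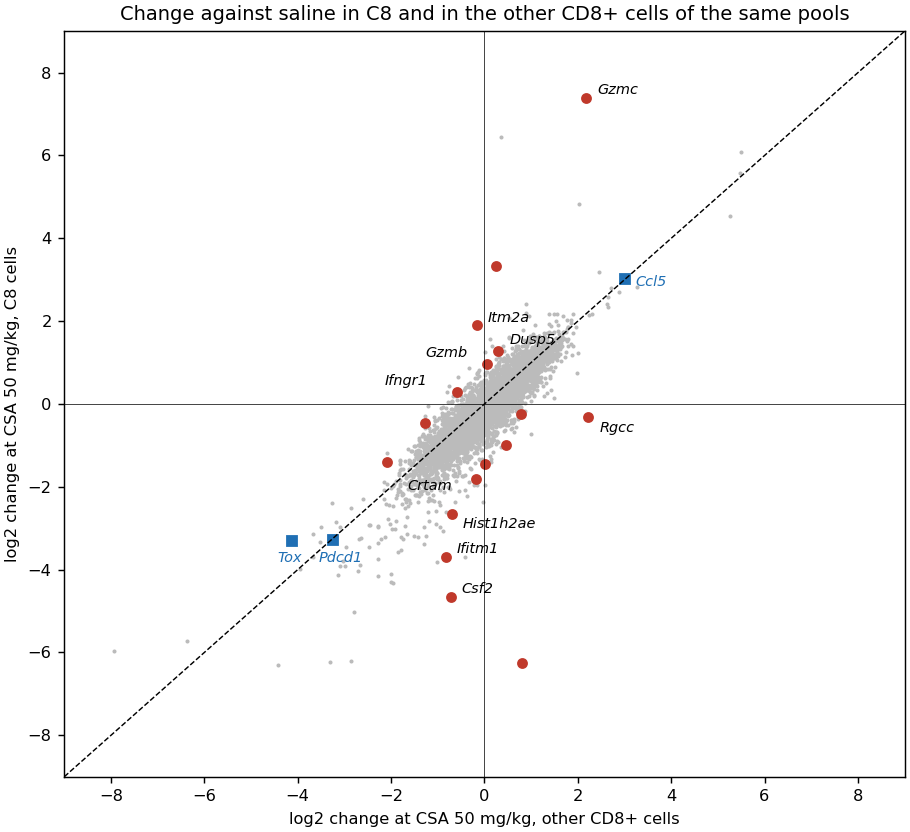
Log2 change at CSA 50 mg/kg against saline in C8 cells (vertical axis) and in the other CD8+ cells of the same pools (horizontal axis), 1 point per gene, with the genes past the test of the difference marked. Pdcd1 and Ccl5 lie near the diagonal and Tox lies slightly above it, while Csf2 lies well below it and Gzmc well above it.

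At 5 mg/kg 7 genes passed the test of the difference (0.147%), 5 with a positive (0.105%) and 2 with a negative one (0.0419%), and 4, 13 and 19 did so without saline replicate 1 and CSA 5 mg/kg replicate 2 and 3. Ccl1 had a difference of 4.23 ± 0.25 (edgeR adjusted p = 1.91e-12) and was lower in the other CD8+ cells at this dose (-0.71). Xcl1 had a difference of 1.72 ± 0.34 (adjusted p = 0.0117), which was lost with all 9 pools (1.22, adjusted p = 0.437), with DESeq2 (adjusted p = 0.998) and without saline replicate 2 (1.55, adjusted p = 0.206), saline replicate 3 (1.73, adjusted p = 0.0814) or CSA 5 mg/kg replicate 3 (0.88, adjusted p = 0.309). Ly6c2 was higher in the other cells (0.80) and lower in C8, a difference of -1.41 ± 0.22 (adjusted p = 0.00149, DESeq2 adjusted p = 0.0564). Mki67 had a difference of 1.43 ± 0.27, which became 0.11 (adjusted p = 0.957) without the cycling clusters and was also lost without saline replicate 1 or 3 or CSA 5 mg/kg replicate 3 (adjusted p 0.0549 to 0.108). The cytosolic chaperone gene Hsp90aa1 had one of 0.86 ± 0.16, which was lost without the cycling clusters (0.69, adjusted p = 0.208) and without saline replicate 1 or CSA 5 mg/kg replicate 2 (adjusted p 0.0985 and 0.121). The remaining 2 genes were the TCR segments Trbv1 and Trbv12-1, and at 50 mg/kg Trbv31 and Trav10 were likewise among the 17.

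C8 made up 2.95%, 2.17% and 1.87% of CD8+ cells in the saline pools, 1.30%, 2.10% and 2.96% at 5 mg/kg, and 3.67%, 4.09% and 2.87% at 50 mg/kg. The means were 2.33% ± 0.559, 2.12% ± 0.831 and 3.54% ± 0.623 (SD, n = 3). The highest saline pool lay above the lowest pool at 50 mg/kg, and the trend over dose did not pass (Jonckheere-Terpstra statistic, exact permutation test, two-sided p = 0.189, smallest possible p 0.00119). The pair of saline and 50 mg/kg gave p = 0.2 and that of saline and 5 mg/kg p = 0.8 in exact two-sided permutation tests, in which 3 against 3 pools cannot go below 0.1. The pool of 9 C8 cells had a share of 1.30% with an exact 95% binomial interval of 0.596% to 2.45%, which like all intervals here covers counting error only. Shares were taken of sorted CD8+ cells and say nothing of cell numbers in the spleen.

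**Figure D5:**
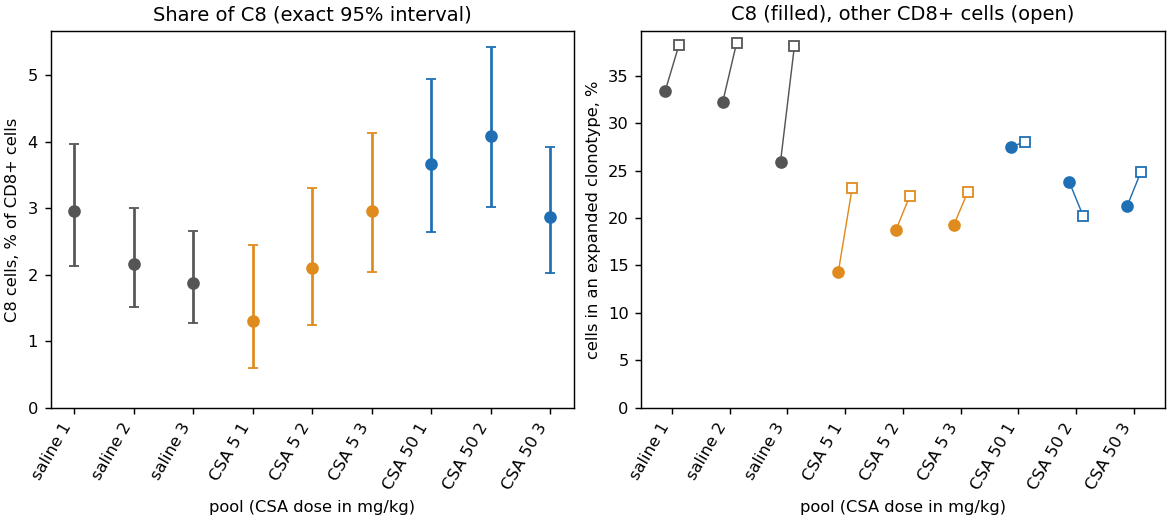
Share of C8 among CD8+ cells in each pool with its exact 95% binomial interval, and share of cells in an expanded clonotype in C8 (filled) and in the other CD8+ cells (open) of each pool. The shares of C8 run from 1.30% to 4.09%, with saline and 50 mg/kg pools overlapping, and the filled points lie below the open ones in 8 of 9 pools.

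Clonal expansion was read from the TCR library, which was not used to make the clusters. A clonotype was called expanded when at least 2 CD8+ cells of a pool carried it. In C8, 255 cells (87.6%) had a clonotype, and 65 of these were in an expanded one. The share of expanded cells in C8 was 33.3%, 32.3% and 25.9% in the saline pools, 14.3%, 18.75% and 19.2% at 5 mg/kg, and 27.5%, 23.8% and 21.2% at 50 mg/kg. Every saline and every 50 mg/kg pool lay above every 5 mg/kg pool, and the pools at 50 mg/kg overlapped those of saline. A clonotype can repeat more often in a larger pool. The saline pools held 1422, 1615 and 1602 CD8+ cells. Those at 5 mg/kg held 692, 856 and 1114, and those at 50 mg/kg 1117, 1124 and 1291. Every 5 mg/kg pool was thus smaller than every other, and the part of pool size in these shares was not tested. Expanded C8 cells at 5 mg/kg were 1 of 7, 3 of 16 and 5 of 26. The trend over dose did not pass (exact two-sided permutation test, p = 0.519). In the other CD8+ cells the shares were 38.2%, 38.5% and 38.1%, then 23.1%, 22.3% and 22.7%, then 28.0%, 20.2% and 24.8%. C8 lay below them in 8 of 9 pools, by 4.41 percentage points on average (SD 4.53, exact two-sided sign-flip permutation test over 9 pools, p = 0.0156, smallest possible p 0.00391). Within pools the gap was -4.89, -6.21 and -12.2 points in saline and -8.83, -3.59 and -3.47 at 5 mg/kg. At 50 mg/kg it was smaller and mixed in sign, at -0.549, 3.58 and -3.61 points. Counting only clonotypes of at least 3 cells the mean difference was -3.77 points (exact p = 0.109).

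Within C8 itself the clones were small. No pool held more than 2 C8 cells of 1 clonotype, and the 255 cells carried 249 clonotypes when these were counted per pool. Of the 249, 55 were also found in other clusters of the same pool. In the saline group these clones had 145 cells outside C8, of which 30.3% lay in C4, 23.4% in C3 and 29 cells in C2. At 5 mg/kg they had 14 cells outside C8, 9 of them in C2, and at 50 mg/kg 42, of which 40.5% lay in C2. Among all other cells with a clonotype in saline, 863 of 3591 lay in C4, 554 in C3 and 611 in C2. At 5 mg/kg 681 of 2102 lay in C2, and at 50 mg/kg 797 of 3055 did. These clusters also differ in size between the groups, so the distribution is a description without a test.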

How the data were processed

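The deposited values were unnormalised counts of UMIs for 18029 genes in each cell, which the authors made from 10x 5′ libraries and filtered to the cells and genes kept. The submitters' processing notes name Cell Ranger, Seurat 3.0.0 and mm10 with no role. The count of antibody UMIs for hashtags and CD4 and CD8 antibodies, and the fraction of mitochondrial UMIs, were deposited per cell, as were the authors' labels of capture, pool, cluster and clonotype. Clusters were numbered 1 to 9 there and matched to C0 to C8 by equal cell numbers in the 3 groups. No further filter on cells or doublet caller was applied, and sums needed at least 10 cells.

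Counts were summed per pool over C8 and over the other CD8+ cells and tested in edgeR 4.0.16 (R 4.3.3; filterByExpr, TMM, quasi-likelihood test, Benjamini-Hochberg, threshold 0.05), with all groups in 1 fit. The difference between C8 and the other cells was an interaction term with the pool as a block, over genes that passed the filter in C8. DESeq2 1.42.0 was an alternative. Shares and clonality were compared with exact permutation tests (Python 3.11.15, scipy 1.17.1). On simulated counts for C8 at 50 mg/kg over 4775 genes, 49% of changed genes were recovered at a log2 change of 1 and 92% at 2. For the test of the difference at 50 mg/kg these shares were 45.4% and 88.8%. Intervals are exact binomial at 95% and cover counting error only. Those of fold values come from the split of UMIs between the groups compared, turned into a ratio. The genes named were Pdcd1, Lag3 and Tox, the 8 largest called rises and falls per comparison with at least 100 CPM and no overlap of pools, the 15 highest and 10 lowest genes against the other CD8+ cells, the 5 largest differences in each direction, and list members that passed. Itm2a, Rps28, Klrk1 and other genes of these rules are shown with pool values chosen after their values were seen. The members of C8 and the gene lists were chosen with earlier results of these data known. Promoter sequences are RefSeq's on GRCm38.p6, taken from a table that is not complete. CD4+ cells were not used here, and a few results are not reported here.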

Additional observations from a re-analysis of the deposited data

Results flagged for a closer look

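The change with dose differed between C8 and the other CD8+ cells of the same pools in a test of that difference for 15 named genes, each given as the log2 change in C8 minus that in the other cells. At 5 mg/kg the difference was 4.23 for Ccl1, 1.72 for Xcl1, 1.43 for Mki67, 0.86 for Hsp90aa1 and -1.41 for Ly6c2. At 50 mg/kg it was 5.63 for Gzmc, 2.26 for Itm2a, 1.13 for Dusp5, 1.07 for Gzmb, 1.03 for Ifngr1, -3.90 for Csf2, -2.72 for Ifitm1, -2.42 for Rgcc, -1.82 for Hist1h2ae and -1.47 for Crtam. Beside these, the UMIs of Ccl1 in C8 at 5 mg/kg lay to 89.0% in 5 cells and those of Gzmc at 50 mg/kg to 140 of 355 in a single cell. Hsp90aa1 stood at 452, 554 and 455 CPM in the saline pools of C8 and at 845 and 723 in the fitted pools at 5 mg/kg. Groups of 3 pools were too small to be searched for single pools that stand apart.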

How the results depend on the processing

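DESeq2 called 450, 1047 and 163 genes at 5 mg/kg, at 50 mg/kg and between doses, and 7 in the test of the difference at 50 mg/kg. Library size scaling called 1260 at 5 mg/kg. Genes passing the filter in either population gave 25 and 52 in the test of the difference at 5 and 50 mg/kg, an alternative chosen after seeing the data, as were the fits with all 9 pools and without immunoglobulin-bearing cells. Leaving out single pools gave 476 to 892, 1426 to 1981 and 179 to 330 calls, 4 to 19 and 7 to 43 for the differences, a gap in C8 share between 50 mg/kg and saline of 0.937 to 1.55 percentage points, a gap in expanded cells of -8.62 to -4.85 points, and an expansion of C8 below the others by -5.41 to -3.45 points, which was -3.77 (exact sign-flip permutation p = 0.109) for clonotypes of at least 3 cells. Leaving out a fitted pool at 5 mg/kg leaves 1, assumed to vary like the others. Lag3 at 5 mg/kg became -0.20 with library size scaling, and Hist1h2ae -1.82 became 0.49 without the cycling clusters. Ccl3 at 50 mg/kg (-0.01) became 0.076 with no filter, 0.055 without cells of 2 strong hashtags, 0.041 without immunoglobulin-bearing cells, and -0.26 to 0.16 in the 8 fits without a pool, 5 of them above 0. Causes were not tested. Of 136 gene results, 42 lost their call under at least 1 alternative.

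Pools with the same replicate number in their labels did not deviate together (correlations -0.05 to 0.02), and the labels do not say that they are paired. A block on this replicate number gave 723, 1811 and 287 calls, with Egr2 and Tnfrsf4 at 5 mg/kg losing theirs. Leaving out cells with a Cd4 UMI was not run, since 0 CD8+ cells hold one. With 291 cells in 9 pools, small changes of low genes were not detectable.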

Other observations

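Further gene groups of C8 were described by counts over fixed lists. Over all genes tested, 11% rose and 6.51% fell at 5 mg/kg, and 20% rose and 19.5% fell at 50 mg/kg. Of the 8 T cell genes tested, 4 (Cd3d, Cd3e, Cd3g and Trbc1) rose at 5 mg/kg and 6 at 50 mg/kg in edgeR at an adjusted p under 0.05. With library size scaling 0 rose and 1 (Cd2) fell at 5 mg/kg, and 3 rose at 50 mg/kg. Of 13 glycolysis genes, 3 were higher and 1 lower at 5 mg/kg, and 4 were higher and 3 lower at 50 mg/kg. The numbers lower were near the shares over all genes. Slc2a3, a glucose transporter, was lower at both doses, and with library size scaling 0 genes were higher and 3 lower at 5 mg/kg, and 1 (Gapdh) was higher and 7 were lower at 50 mg/kg.

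Of 11 S phase genes, 3 (Mcm4, Mcm5 and Rrm2) fell at 50 mg/kg and 0 rose, beside 19.5% of all genes that fell. With library size scaling 10 fell, and with DESeq2 1 (Mcm4) did. Of the 5 transitory or effector genes tested, Klrg1 and Ly6c2 rose and Cx3cr1 and Zeb2 fell at 50 mg/kg. Cx3cr1, a receptor of cytotoxic effector cells, had 23 UMIs in the saline pools of C8 and 0 at 50 mg/kg, at least 12.04-fold higher in saline against a floor of 3 counts over the group. Il21, a cytokine of help, had 16 UMIs in saline and 0 at 50 mg/kg, at least 8.38-fold higher on the same scale.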
